A study of Mus musculus with 6 samples.

Results

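The Wnt receptor and signal transducer genes followed here are the Frizzled receptor genes Fzd1, Fzd2, Fzd7 and Fzd10, the co-receptor gene Lrp6, and the transducer genes Dvl2, Gsk3b, Apc, Ctnnb1 and Tcf7l1. These 10 were chosen from the pathway by role, with earlier results of these data known. Only genes with at least 1 probe annotated to a single gene were taken, out of 13840 genes named on the array. For Fzd7, Lrp6 and Gsk3b, which had 2 such probes, the brighter one over the 6 arrays stands for the gene. The RNA was that of mouse presomitic mesoderm at embryonic day 10.5, the unsegmented tissue from which somites are cut off one after another. The knockout embryos carried LacZ in place of the coding region of Nrarp, a conventional replacement made by homologous recombination. The controls were wild-type embryos of the same litters, from crosses between heterozygous parents. For each genotype 12 presomitic mesoderms were collected and 3 one-colour arrays were run, with replicate numbers 1 to 3. The labels do not say how these were shared out among the arrays, so the spread between arrays may be technical.

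In the canonical Wnt pathway a secreted Wnt protein joins a seven-pass Frizzled receptor to the co-receptor Lrp6, and Dishevelled proteins such as Dvl2 are recruited beneath them. In the absence of Wnt, Apc and the kinase Gsk3b work with Axin to mark beta-catenin, the product of Ctnnb1, for destruction. When that complex is held at the membrane, beta-catenin accumulates and binds Tcf and Lef factors on DNA, among which Tcf7l1 acts largely as a repressor that beta-catenin relieves. In the presomitic mesoderm, Wnt signalling is strongest at the tail end, where it maintains the progenitors and takes part in the segmentation clock. Nrarp is induced by Notch and dampens it, and in zebrafish its product has also been reported to stabilise Lef1 protein. Arrays measure RNA, so protein stability lies outside these data.

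The Nrarp probe read 14.3, 42.5 and 23.3 on the knockout arrays, against 318, 429 and 448 on the wild-type arrays, and the groups were apart. Whether this probe lies in the replaced part of the gene is not stated in the labels. Intensities are on the authors' scale, on which array medians lay between 0.981 and 0.993, so a reading near 1 is at the middle of all probes. The arrays numbered 1 stood apart from those numbered 2 and 3 in both genotypes, with 75th percentiles of 9.71 and 8.88 against 4.90 to 5.88 elsewhere. Of 8 measured presomitic markers, 6 lay above the 75th percentile on every array, among them Tbx6 and Dll3. The other 2, Msgn1 and Hes7, lay above it on the replicate 1 arrays alone, and above the median on all 6. Summed presomitic markers ranged from 1491 to 1688 in the knockout and from 1404 to 1736 in wild type. Primitive blood markers were also bright, with 6 of 7 above that percentile and sums of 4908 to 7748 in the knockout and 5799 to 7701 in wild type. Presomitic markers went both ways with the replicate number. Of the 8 presomitic markers 4 were higher on both replicate 1 arrays than on the other 4 arrays and 2 were lower, where 25.2% of all probes were higher and 34.4% lower. Hes7, an oscillating repressor of the segmentation clock, read 64.1 on knockout array 1 and 54.2 on wild-type array 1, and 1.19 to 2.09 on the other arrays. Msgn1 was 14.7-fold higher on replicate 1, while Tbx6 was at 0.592-fold. The summed presomitic level, which Tbx6 and Dll3 dominate, was 1404 to 1491 on the replicate 1 arrays and 1519 to 1736 on the others. Of 8 surface ectoderm markers 4 were higher on replicate 1 and 0 lower, with sums of 208 to 229 on replicate 1 and 129 to 148 elsewhere. Much of that gap is Epcam, at 107 and 96.6 on the replicate 1 arrays and 32.9 to 45.7 on the others, whereas Krt5 was at 0.939-fold. Of 7 gut markers 3 were higher and 1 lower, with sums of 152 to 163 on replicate 1 and 62.2 to 87.6 elsewhere. Of 7 blood markers 3 were higher and 1 lower, yet their sums were lower on replicate 1, at 4908 to 5799 against 6688 to 7748. The part of other tissue in the values below was not tested, and fewer cells of a type cannot be told apart from less RNA per cell.

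For none of the 10 genes was a difference between knockout and wild type shown beyond the spread of the arrays, which does not show that the genotypes are alike. In limma's moderated test 0 of them passed an adjusted p of 0.05, against 0 of 33012 probes (0%). Nrarp itself did not pass in that fit (limma adjusted p = 0.428), so a count of 0 there says little about the 10 genes. An unadjusted p under 0.05 was reached by 0 of the 10 genes and by 0.657% of probes. With the replicate number as a block, 0 of the 10 genes and 2 probes (0.00606%), those of Nrarp and Hes5, passed after adjustment. In that fit 1 of the 10, Tcf7l1, and 3.75% of probes had an unadjusted p under 0.05. The blocked 95% intervals lay within 2-fold in both directions for 6 of the 10 genes, and the unblocked ones for 1 of the 10. The array values of knockout and wild type overlapped for all 10 genes, while 3.78% of all probes had groups that did not overlap. The median of the 10 log2 differences, knockout minus wild type, was -0.03, and 3 of them were above and 7 below 0. The median over all probes was -0.01.

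**Figure D1:**
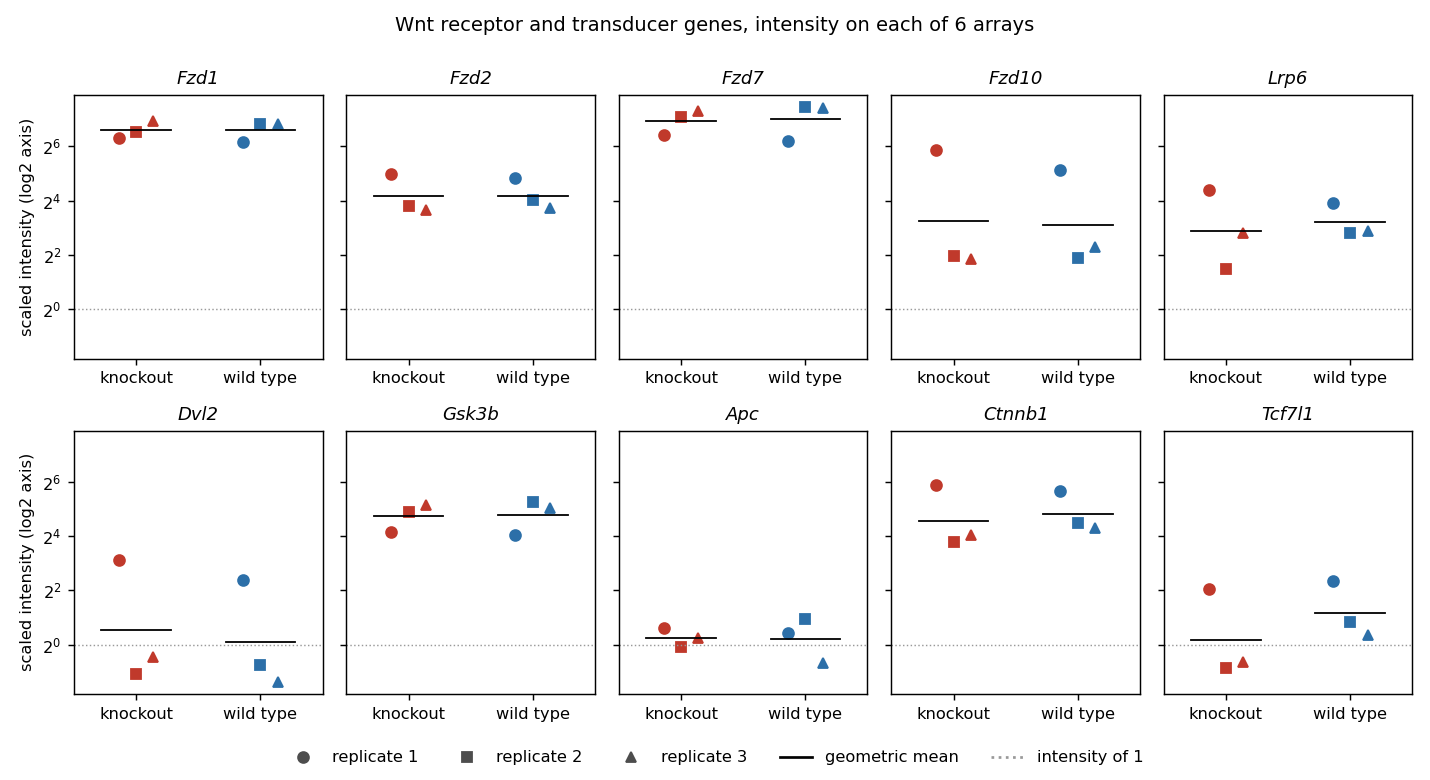
Scaled intensity of each gene on the 6 arrays, on a log2 axis, with knockout left of wild type, marker shapes for replicate numbers, bars at the geometric mean and a dotted line at an intensity of 1. In every panel the knockout and wild-type points overlap, and in 9 of 10 panels both replicate 1 points lie outside the other 4.

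Fzd7 and Fzd1, which encode close relatives within the Frizzled family, were bright in both genotypes and lay above the 75th percentile on every array. Fzd7 read 85.2, 134 and 158 on knockout arrays 1 to 3, against 73.7, 174 and 169 on wild-type arrays 1 to 3. Both lowest readings came from replicate 1, and the knockout values lay inside the wild-type range. The log2 difference was -0.09 (SE 0.41 without and 0.13 with the block), and the blocked 95% interval ran from 0.770-fold to 1.15-fold of wild type. Fzd1 read 79.5, 92.9 and 122 in the knockout, against 72.4, 114 and 113 in wild type. The lowest reading of each genotype was again replicate 1, and means of 98.2 ± 21.9 and 99.7 ± 23.7 (SD, n = 3 each) hardly differed in knockout and wild type. Its log2 difference of -0.01 had a blocked interval of 0.817-fold to 1.20-fold, the narrowest among the 10.

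Fzd2, the third gene of that receptor subgroup, read 31.6, 14.1 and 12.7 in the knockout, against 28.3, 16.1 and 13.2 in wild type. Here the replicate 1 arrays were the high ones, opposite to Fzd1 and Fzd7. It differed by -0.03 on the log2 scale, with a blocked interval of 0.777-fold to 1.24-fold.

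Fzd10, a more distant Frizzled gene, was the receptor gene that varied most between arrays. It read 58.7, 3.89 and 3.65 in the knockout, against 35.0, 3.68 and 4.94 in wild type. Replicate 1 was over the rest in both genotypes, by a geometric mean of 11.3-fold, and the other 4 readings lay close together. The log2 difference between genotypes was 0.13, and the block narrowed its 95% interval to 0.754-fold to 1.59-fold, against 0.148-fold to 8.10-fold without it. Without the replicate 1 arrays the sign turned, at -0.18.

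Among the Frizzled genes outside this group, Fzd5 read 2.36 to 3.02 in the knockout and 2.39 to 3.06 in wild type, with a log2 difference of -0.07. Fzd4 was dimmer than the array medians on all 6 arrays, at 0.695, 0.939 and 0.554 in the knockout against 0.328, 0.529 and 0.425 in wild type. Its groups did not overlap and the log2 difference was 0.77, yet it did not pass (limma adjusted p = 0.999 with the block). Fzd6 and Fzd8 differed by -0.08 and 0.07 and were above 1 only on the replicate 1 arrays. Fzd3 and Fzd9 have no single-gene probe here.

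Lrp6, the co-receptor gene, read 20.9, 2.76 and 7.02 in the knockout, against 15.1, 6.97 and 7.44 in wild type. The replicate 1 arrays were high in both genotypes, and knockout array 2 was the lowest of the 6. The log2 difference was -0.32, with a blocked interval of 0.492-fold to 1.31-fold. With arrays matched by replicate number, the knockout value was higher in pair 1 and lower in pairs 2 and 3. These differences were 0.47, -1.33 and -0.09 on the log2 scale. The dimmer Lrp6 probe gave the opposite sign, 0.41, with readings of 5.62, 0.959 and 0.879 in the knockout and 4.68, 0.287 and 1.52 in wild type. Lrp5, the paralogous co-receptor gene, read 8.53, 3.25 and 1.36 in the knockout and 7.98, 2.76 and 2.86 in wild type, a log2 difference of -0.25 (limma adjusted p = 0.999 with the block).

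Dvl2, which passes the signal from Frizzled to the destruction complex, had the largest positive difference of the 10 at 0.45. It read 8.76, 0.471 and 0.733 in the knockout, against 5.18, 0.591 and 0.385 in wild type. The replicate 1 arrays held the only readings above the array medians, and the other 4 lay below them in both genotypes. The blocked interval was 0.699-fold to 2.68-fold. In the unblocked fit the sign turned without knockout array 1, at -0.85, and without wild-type array 3, at -0.27. Dropping a single array leaves the replicate numbers unequal between genotypes. With both replicate 1 arrays left out the difference was 0.30. Its paralogues Dvl1 and Dvl3 read between 0.328 and 2.68 over the 6 arrays and differed by 0.14 and 0.48.

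Of the destruction complex genes, Gsk3b read 17.8, 29.9 and 35.4 in the knockout, against 16.4, 37.7 and 32.8 in wild type. The lowest array of each genotype was replicate 1, and the remaining readings interleaved. The log2 difference was -0.03, with a blocked interval of 0.776-fold to 1.23-fold. The second Gsk3b probe, at 45.1, 8.71 and 10.5 in the knockout and 36.6, 10.7 and 9.82 in wild type, differed by 0.03.

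Apc, the scaffold of the complex, read close to the array medians on every array. Its values were 1.52, 0.941 and 1.18 in the knockout, against 1.33, 1.92 and 0.620 in wild type, with the knockout readings inside the wild-type range. Its log2 difference was 0.03, and the blocked interval of 0.483-fold to 2.16-fold was wide for a gene whose genotype means are 1.21 ± 0.292 and 1.29 ± 0.649 (SD, n = 3 each) in knockout and wild type. Apc was the 1 gene of the 10 in which the replicate 1 arrays did not stand outside the others. Axin1, which encodes the partner scaffold, read 85.4, 53.4 and 52.8 in the knockout and 79.7, 56.5 and 66.2 in wild type, a log2 difference of -0.10.

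Ctnnb1, the gene of beta-catenin, read 59.6, 13.9 and 16.3 in the knockout, against 50.0, 22.5 and 19.4 in wild type. On the arrays numbered 2 and 3 both knockout readings lay below both wild-type readings, while on replicate 1 the knockout was the higher one. Over all arrays the log2 difference was -0.23, with a blocked interval of 0.637-fold to 1.14-fold. Within replicates 2 and 3 it was -0.48, with a limma adjusted p of 0.833 in the blocked fit. Leaving out wild-type array 1 in the unblocked fit turned the overall sign, at 0.19. That fit kept knockout array 1, so replicate 1 was present in the knockout alone.

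Tcf7l1, the repressor among the Tcf factors, had the largest difference of the 10 genes. It read 4.09, 0.545 and 0.645 in the knockout, against 5.13, 1.76 and 1.27 in wild type. The replicate 1 arrays were high in both genotypes, and within each replicate number the knockout array was the lower one. The log2 difference was -0.998, or 0.501-fold, and by pair it was -0.32, -1.69 and -0.98. The groups overlapped, because knockout array 1 exceeded wild-type arrays 2 and 3. The exact permutation test of 3 against 3 arrays gave p = 0.4 (two-sided), where 0.1 is the smallest this design allows. Limma gave an unadjusted p of 0.296 without the block, and with the block an unadjusted p of 0.0324 and an adjusted p of 0.999. The blocked interval ran from 0.270-fold to 0.930-fold, and the unblocked interval from 0.120-fold to 2.10-fold. Tcf7l1 was the 1 gene of the 10 with the same sign in all 3 pairs, which 23.7% of all probes had. It was also the 1 that kept its sign with each array left out of the unblocked fit, between -1.93 and -0.40. That range includes the shift of replicate 1, since dropping a single array leaves the replicate numbers unequal between genotypes. On the arrays numbered 2 and 3 the knockout readings lay under the array medians and the wild-type readings just above them, so the difference falls in the dim part of the scale.

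**Figure D2:**
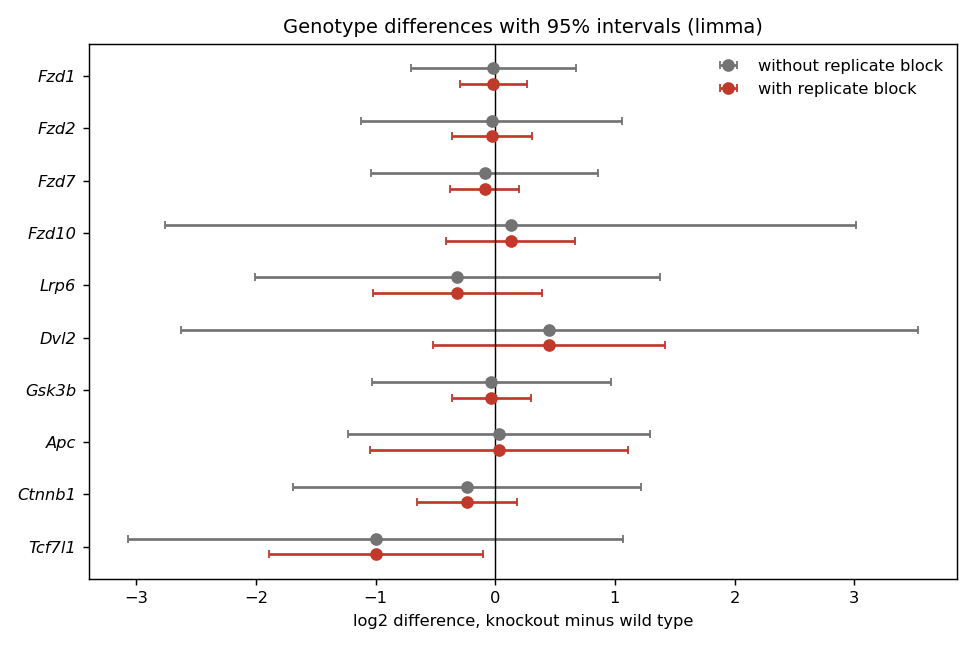
Log2 difference, knockout minus wild type, for each gene with 95% intervals from limma, grey without and red with the replicate number as a block. All grey intervals span 0, and of the red ones only that of Tcf7l1 does not, running from -1.89 to -0.11.

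Of the other Tcf and Lef factors, Lef1 read 176, 39.2 and 48.6 in the knockout and 149, 33.9 and 35.7 in wild type. It differed by 0.30, and each knockout array exceeded the wild-type array of its number, although the groups overlapped. The blocked interval ran from 1.03-fold to 1.47-fold, and the unblocked one from 0.374-fold to 4.05-fold. With the block limma gave an unadjusted p of 0.0283, a little under that of Tcf7l1, and an adjusted p of 0.999, so Lef1 did not pass. Tcf7 and Tcf7l2 have no single-gene probe here.

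Promoter sequence is shown for Tcf7l1, the gene with the largest difference, and for Ctnnb1, whose product binds Tcf7l1 on DNA. Each is the stretch of 250 bases before an annotated start of the gene, on its own strand, from RefSeq on build GRCm38.p6. That of Tcf7l1 is chr6:72789046-72789295 on the minus strand, and that of Ctnnb1 is chr9:120933150-120933399 on the plus strand. Ctnnb1 has another annotated start, and its stretch (chr9:120933328-120933577) is not printed. Capitals mark a match to GTGGGAA, the motif of the Notch effector RBPJ, read on either strand.
Tcf7l1: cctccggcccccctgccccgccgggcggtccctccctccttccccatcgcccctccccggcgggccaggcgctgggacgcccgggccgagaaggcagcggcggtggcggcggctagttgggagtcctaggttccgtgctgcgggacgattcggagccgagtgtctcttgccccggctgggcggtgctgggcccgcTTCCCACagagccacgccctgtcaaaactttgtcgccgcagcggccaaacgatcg
Ctnnb1: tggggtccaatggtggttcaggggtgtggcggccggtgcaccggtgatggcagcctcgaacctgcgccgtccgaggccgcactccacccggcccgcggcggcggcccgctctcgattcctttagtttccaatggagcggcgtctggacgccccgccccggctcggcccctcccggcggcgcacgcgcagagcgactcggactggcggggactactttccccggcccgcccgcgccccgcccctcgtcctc

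The Tcf7l1 stretch held 1 such match, on the opposite strand and beginning 55 bases before the start. The same letters occurred in 5.42% of 32851 stretches of this length before annotated starts, and in 1 of the 7 genes of the group that are in the table. CTTTGAT, a motif of Tcf and Lef factors, was found in 0 of these 7 genes and in 3.21% of all stretches. With no Tcf and Lef match in either printed stretch, there was no overlap of motifs to describe. A match is a description of the letters and not of binding. Bases G and C made up 73.6% of the Tcf7l1 stretch and 74.8% of that of Ctnnb1, and the median over all stretches was 52.4%.

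These genes differed more between replicate numbers than between genotypes. For all 10, the log2 difference between replicate 1 and the mean of replicates 2 and 3, averaged over both genotypes, was larger than the genotype difference, as it was for 82.2% of all probes. The shares of probes given here are over dim and bright probes alike, whereas all 10 genes lay above the median level over all probes. In 6 genes both replicate 1 arrays exceeded the other 4 arrays, against 25.2% of probes. These were Fzd2 (2.14-fold by geometric means), Ctnnb1 (3.08-fold), Lrp6 (3.16-fold), Tcf7l1 (4.87-fold), Fzd10 (11.3-fold) and Dvl2 (12.7-fold). In 3 genes both replicate 1 arrays lay under the other 4, against 34.4% of probes. For these, replicates 2 and 3 exceeded replicate 1 by 1.45-fold in Fzd1, 1.98-fold in Gsk3b and 1.99-fold in Fzd7. The direction was the same in knockout and wild type for each of these 9 genes, which follows from the rule that picked them. Array range also differed by replicate number, as given above. Marker sums did so in both directions. Those of surface ectoderm, gut and neural tube were higher on replicate 1, and those of presomitic mesoderm, primitive blood and lateral plate were lower. Yet of 9 neural tube markers 2 were higher on both replicate 1 arrays than on the other 4 arrays, and 4 were lower. The part of array range and marker sums in these differences was not tested.

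**Figure D3:**
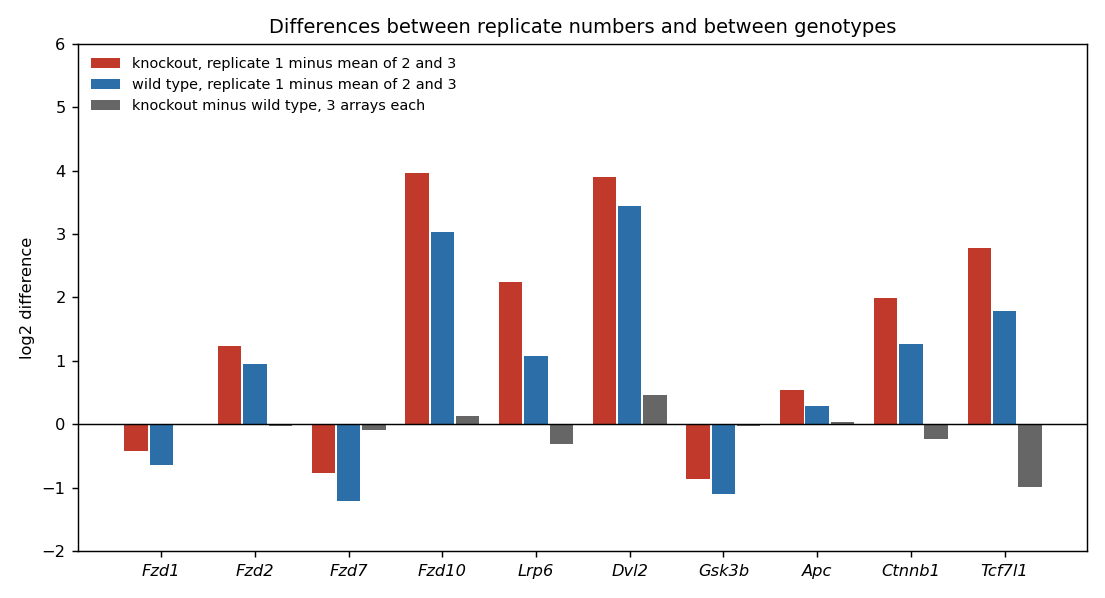
Log2 differences for each gene: replicate 1 minus the mean of replicates 2 and 3 within the knockout (red) and within wild type (blue), and knockout minus wild type over 3 arrays each (grey). Red and blue bars point the same way for every gene, from about 4 log2 units up in Fzd10 and Dvl2 to about 1 down in Fzd7 and Gsk3b, while 9 of 10 grey bars lie within 0.5 of 0.

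Where a gene had 2 probes, they did not always follow the same pattern over the arrays. Between replicate 1 and the other replicates, the used Gsk3b probe (427027) was 1.98-fold lower and the second one (564783) 4.10-fold higher. Both Gsk3b probes therefore differed in opposite directions on the same arrays, while each gave a genotype difference within 0.04 log2 units of 0. The Fzd7 probes differed as well: the used one (802800) was 1.99-fold lower on replicate 1, and the other (541386) was 1.17-fold higher by geometric means, with its arrays interleaved. This second Fzd7 probe read 20.2, 13.7 and 14.1 in the knockout against 19.4, 17.1 and 24.6 in wild type, a log2 difference of -0.36 (limma unadjusted p = 0.302 without the block). The Lrp6 probes moved together, 3.16-fold (605165) and 6.59-fold (691244) up on replicate 1. The sources used here do not say which part of a transcript each probe reads.

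**Figure D4:**
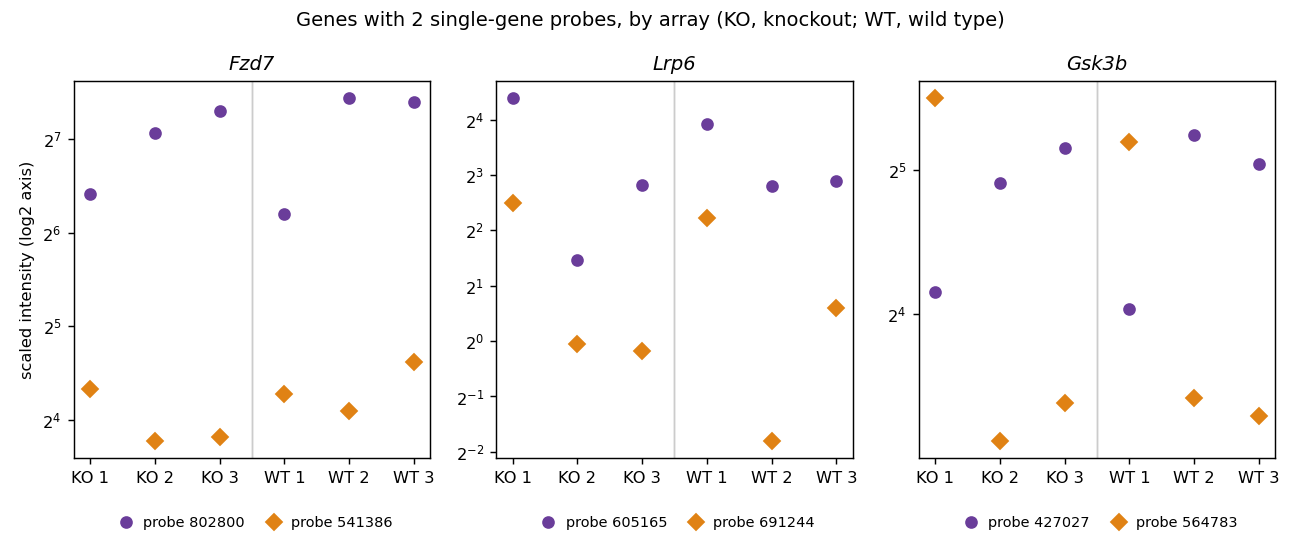
Scaled intensity, on log2 axes that differ by panel, of both single-gene probes of Fzd7, Lrp6 and Gsk3b on knockout arrays 1 to 3 (left) and wild-type arrays 1 to 3 (right). The Gsk3b probes cross between replicate 1 and the other replicates in both genotypes, and the Lrp6 probes go up together on replicate 1.

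The wider Wnt pathway gave no call either. Of 130 genes in 11 lists by role, 105 were measured, and 0 passed in limma with or without the block, against 0% and 0.00606% of all probes. Unadjusted, 0 had a p under 0.05 without the block, against 0.657% of all probes, and 10 with it, against 3.75%. Their median difference was -0.01, with 52 values above and 53 below 0. Groups did not overlap in 7 of the 105, with the knockout higher in 6, against 3.78% of all probes in either direction.

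The 18 measured ligand genes were split evenly, 9 above and 9 below 0, around a median of 0.03. Wnt3a, the main canonical Wnt of the tail end, read 84.8, 47.4 and 51.6 in the knockout and 83.9, 46.8 and 53.6 in wild type, a log2 difference of -0.01. Wnt10a, a dim gene here, read 2.22, 1.71 and 1.46 in the knockout against 1.39, 0.188 and 0.879 in wild type, and the groups did not overlap (log2 difference 1.53, limma adjusted p = 0.999 with the block). By pair the difference was 0.67, 3.19 and 0.73, and the middle value rests on a wild-type reading at the bottom of the scale. Wnt3 differed by 0.68. In the secretion genes, Wls differed by -0.36 and Porcn by 0.11. Rspo3, which encodes a potentiator of Wnt receptors, read 137, 127 and 138 in the knockout against 150, 207 and 141 in wild type, without overlap, a log2 difference of -0.29 (limma adjusted p = 0.999 with the block). Rspo4 differed by 0.80, with wild-type arrays 2 and 3 at 0.377 and 0.357, well under the array medians.

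The 8 measured Frizzled genes had a median of -0.02, the 7 co-receptors and other receptors -0.02 (Ror1 0.12), and the 8 Dishevelled genes and partners 0.18. In the last list Dact2, a dim gene for a Dishevelled-binding modulator, differed by 0.79 and the kinase gene Csnk1e by 0.22. The 9 measured genes of beta-catenin and its destruction complex had a median of -0.03 and spanned -0.23 to 0.17, with Ctnnb1 lowest and the ubiquitin ligase gene Fbxw11 highest. Fbxw11 read 71.3, 76.9 and 75.9 in the knockout and 61.8, 71.2 and 67.0 in wild type, apart but not past the test. The 9 nuclear transducers had a median of 0.03, with the co-repressor gene Tle2 at 0.95 and Tcf7l1 at the other end. By pair Tle2 differed by 1.92, 0.91 and 0.005, and the first value rests on a wild-type reading of 0.304.

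The 19 secreted and membrane antagonists had a median of -0.01. Sost differed most, by 2.27, with 1 knockout array far over the rest. It read 1.66, 21.2 and 0.840 in the knockout and 0.685, 0.621 and 0.611 in wild type. Dkk2 differed by -1.30, and by pair by -0.78, -3.65 and 0.52. The 8 planar cell polarity genes had a median of -0.11, with Celsr3 at -0.84 and Celsr2 at -0.48. Both are dim genes here, with Celsr3 above the array median on 1 array and Celsr2 on 0. For 12 target and feedback genes the median was 0.16, with 7 above and 5 below 0. Dact1, a dim gene here, differed by 1.13 and Ccnd1 by 0.59, while Sp5 was the lowest at -0.42. None of the pathway genes named here passed over all probes in limma (adjusted p = 0.999 with the block for each).

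**Figure D5:**
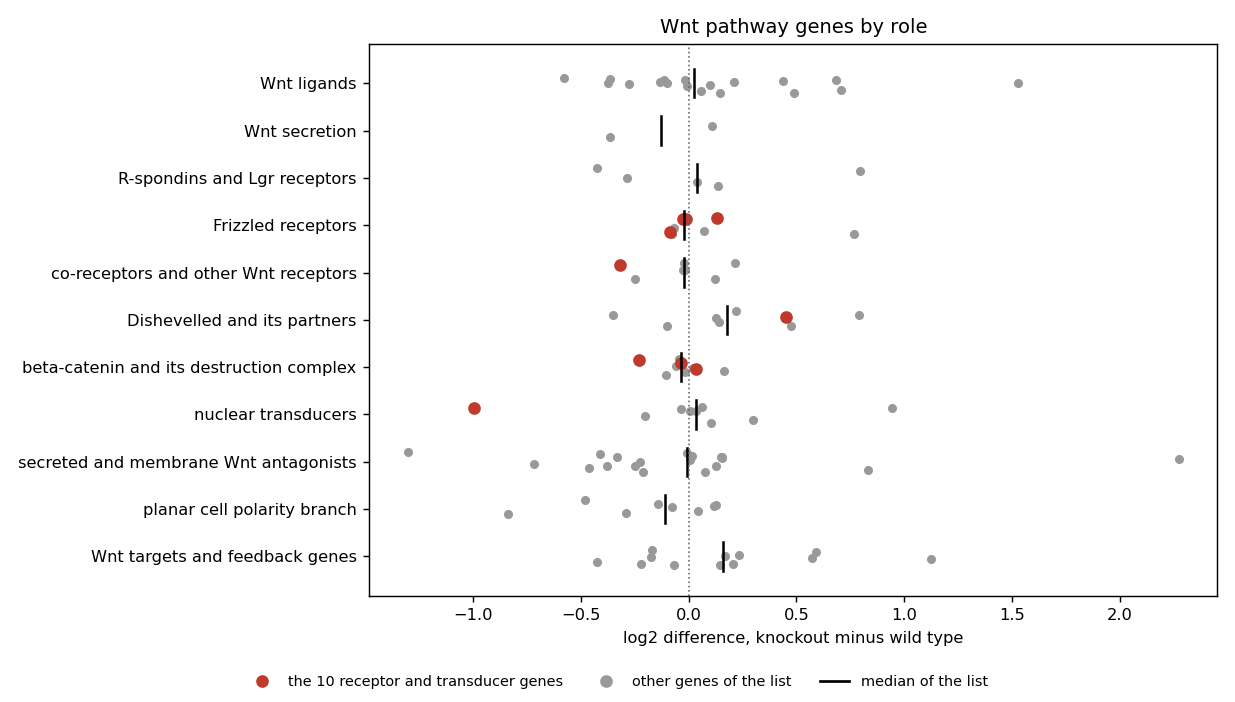
Log2 difference, knockout minus wild type, of 105 measured Wnt pathway genes by role (1 point a gene), with the 10 receptor and transducer genes in red and the list median as a bar. Medians lie between -0.13 and 0.18, and Tcf7l1 is the lowest of the nuclear transducers.

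The genes whose profile over the 6 arrays was most like that of each of the 10 were sought among 8640 named genes above the median level, by the root mean square difference of mean-centred log2 values. For Fzd1 this was Bmt2 (0.03), for Fzd7 E2f4 (0.04), for Gsk3b Eny2 (0.03) and for Ctnnb1 Cab39 (0.07). Eny2 read 17.7, 30.1 and 35.3 in the knockout and 16.3, 36.7 and 31.3 in wild type, low on replicate 1 as the used Gsk3b probe was. For Tcf7l1 it was Acsl4 (0.19), at 10.2, 1.12 and 1.36 in the knockout and 11.3, 2.82 and 2.84 in wild type. These likenesses describe 6 arrays, in which the replicate number carries most of the variation.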

How the data were processed

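Digoxigenin-labelled cRNA from presomitic mesoderm was read on Applied Biosystems arrays in 1 colour, per the labels' protocols. The deposited values are intensities on a linear scale, scaled by the authors so that array medians lie just under 1. The scaling software, background correction and flags are not stated there. The descriptions name a human array, whereas organism and probe annotation are mouse. All 33012 probes on 6 arrays were used; 14411 have 1 gene, 247 several and 18354 none in the annotation.

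Here the log2 of each deposited intensity was taken, with no offset, filter or further normalization. Knockout was compared with wild type in limma 3.58.1 (R 4.3.3; lmFit, eBayes with intensity trend) by two-sided tests at 0.05 after Benjamini-Hochberg adjustment over the whole table. Residual and prior degrees of freedom were 4 and 3.66, and 2 and 6.64 with a replicate block. Tested on simulated data, both fits returned the fold changes put in. The simulated arrays took the replicate effects and spread of the blocked fit, and changes went into probes above the median level. The block thus held there by construction, so the shares called with it need not hold for the real arrays. Without the block 0% of 2-fold and 0% to 1% of 4-fold changes were called. With it 47% to 62% and 85% to 95% were called, but the share of false calls, 10% to 14%, was above the threshold. Deviations from group means correlated within replicate numbers by 0.757, 0.442 and 0.374, and arrays of 1 number were taken as pairs. Numbers 2 and 3 crossed gave 0.397 and 0.419. The correlations thus set replicate 1 apart but do not show which arrays of numbers 2 and 3 belong together. Pairs 2 and 3 rest on the number alone, and the labels tie the numbers to no litter or day.

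Named genes are the 10 genes, Nrarp, paralogues, the 2 of smallest p in each of 11 pathway lists and the gene most alike in profile. Wnt3a, Sp5 and the markers Tbx6, Dll3, Hes7, Msgn1, Epcam and Krt5 were added after their values were seen. The 10 genes and the lists were chosen with earlier results of these data known. The 9 marker lists also cover somite, neural tube, notochord, endothelium and lateral plate, in which 0 genes passed. Tables were made in Python 3.11.15 (pandas 2.3.3, numpy 2.4.6), exact tests with scipy 1.17.1 and figures with matplotlib 3.10.9.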

Additional observations from a re-analysis of the deposited data

How the results depend on the processing

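Across 16 alternatives, most of them without the block, 0 of the 10 genes and 0 of the 105 measured pathway genes passed in limma. The smallest adjusted p among the 10 was 0.473 (Tcf7l1, array weights). The count of probes called was 2 with the replicate block, 2 with both replicate 1 arrays left out, 2 with the block within replicates 2 and 3, and 1 with array weights, against 0 otherwise. The median log2 difference of the 10 genes ranged from -0.64 (without knockout array 1, wild-type array 1 kept; median over all probes 0.05) to 0.15 (without knockout array 2). Only Tcf7l1 kept its sign under every alternative, from -1.93 to -0.40. Signs turned elsewhere, all of them in differences that had not passed. Centring on 75th percentiles gave 0.038 for Fzd1, 0.025 for Fzd2 and 0.018 for Gsk3b. Array weights gave 0.080 for Fzd1, 0.046 for Gsk3b and -0.34 for Fzd10. Both fits without replicate 1 gave -0.050 for Apc and -0.18 for Fzd10. An offset of 1 gave -0.015 for Apc, and averaging both probes gave 0.045 for Lrp6. With single arrays left out the log2 differences ranged from -0.23 to 0.13 for Fzd1, -0.44 to 0.29 for Fzd2, -0.49 to 0.17 for Fzd7 and -1.19 to 1.14 for Fzd10. They ranged from -1.07 to 0.39 for Lrp6, -0.85 to 1.60 for Dvl2, -0.40 to 0.26 for Gsk3b, -0.42 to 0.39 for Apc and -0.89 to 0.19 for Ctnnb1. The fits with single arrays left out had no block. Dropping 1 array left the replicate numbers unequal between genotypes, so the shift of replicate 1 enters these ranges. What else lies behind them was not tested. Of the 10 unblocked intervals 1, that of Fzd1, lay within 2-fold in both directions, against 6 of 10 with the block. All 10 genes passed the filter on dim probes, which kept those whose mean log2 over the 6 arrays was above the median. Passing does not make a gene bright on each array, as 3 of the 10 lay below the array median on at least 1. Dvl2 was above it on the replicate 1 arrays alone.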
